A study of Mus musculus with 6 samples.

Results

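The interferon regulatory factor (IRF) genes *Irf1*, *Irf2*, *Irf3*, *Irf4*, *Irf5*, *Irf7* and *Irf8* were examined in monocytes taken from the inflamed central nervous system (CNS) of mice. They are taken by name, as members of the IRF gene family, though earlier results of these data were known when the family was picked, and make up 7 of the 54232 genes in the deposited tables. *Irf9*, another gene of the family, is given beside them.

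IRF proteins share a DNA-binding domain that recognises repeats of GAAA, the core of the interferon-stimulated response element (ISRE). IRF3, IRF5 and IRF7 lie dormant in the cytoplasm until kinases downstream of nucleic acid sensors and Toll-like receptors phosphorylate them. IRF9 joins STAT proteins in ISGF3, the complex that carries the signal of the type I interferon receptor to ISREs. IRF1 and IRF2 bind shared sites, the former mainly as an activator and the latter largely as a repressor, and IRF4 and IRF8 act in lymphoid and myeloid cells with partners such as PU.1.

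The study asked how type I interferon acts on monocytes in experimental autoimmune encephalomyelitis (EAE), a mouse model of multiple sclerosis. It used bulk RNA sequencing of 3 libraries of wild-type (WT) and 3 of Ifnar1-/- monocytes, the latter without a working type I interferon receptor. Both came from mixed bone marrow chimeras: GFP+ recipients were lethally irradiated and reconstituted with equal parts of WT (CD45.1) and Ifnar1-/- (CD45.2) marrow, and EAE was induced 6 to 7 weeks later. At the peak of disease, cells that were GFP-, CD45+, CD11b+, Ly6C high and Ly6G- were sorted from the CNS. All recipients had received 30000 IU of recombinant interferon-β (rIFN-β) daily, so both groups came from treated animals, and no untreated library was analysed here. Genotype and CD45 allele went together in all 6 libraries, so the *Ifnar1* deletion and any difference between the donor strains cannot be told apart. The labels do not say that the replicates came from separate animals. The paper's legend gives 3 recipient mice and 3 samples per genotype, without stating which mouse gave which library. The p-values measure the spread between these libraries, which may be partly technical. In bulk samples, fewer cells of a type and less RNA per cell cannot be told apart.

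Total expected counts, the RSEM estimates of reads per gene, ran from 4531782 to 7321380 in the WT libraries and from 5442568 to 6916101 in the Ifnar1-/- libraries. A count of 3, about the highest expected count that an observed count of 0 would allow, was taken as the detection floor. It corresponded to 0.427 to 0.638 normalized CPM (counts scaled to a common library size, with TMM factors), which covers counting error alone. Mitochondrial ribosomal RNA took 12.3 to 17.6% of the WT and 15.1 to 22.7% of the Ifnar1-/- counts. *Ifnar1* itself was read in every library, with 153, 126 and 111 normalized CPM in WT replicates 1, 2 and 3 and 110, 102 and 109 in Ifnar1-/- replicates 1, 2 and 3 (edgeR adjusted p = 0.360). The WT values lay narrowly above the Ifnar1-/- values, and the difference was not called. Its abundance-weighted transcript length did not overlap either, at 3352 ± 181 bases in WT and 2325 ± 131 in Ifnar1-/- libraries (SD, n = 3). Summed monocyte markers, 7490 to 9104 normalized CPM in WT and 7978 to 9118 in Ifnar1-/- libraries, were the highest of the 8 cell type lists examined. Most of this sum came from *Lyz2* and *Itgam*, and sums over different genes do not measure the share of each cell type. Of that list only *Ly6c2*, which encodes part of the antigen used in the sort, was called. It was 2.65-fold higher in WT (log2 1.40 ± 0.23 SE, edgeR adjusted p = 0.00957), though it may share reads with the similar *Ly6c1*. *Ccr2* went the other way, with all WT libraries below all Ifnar1-/- libraries in normalized CPM (log2 -0.62, edgeR adjusted p = 0.143). *Fcgr1* lay higher in all WT libraries (log2 0.71, edgeR adjusted p = 0.0839), and *Itgam*, *Csf1r* and *Lyz2* overlapped.

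The start regions of *Irf7*, *Irf1*, *Irf2* and *Irf8* are shown because the first of these carried the difference between the genotypes and the other 3 held interferon-type motifs. They come from RefSeq promoter windows on GRCm38.p6, with stretches inside annotated exons of the gene left out. Each is printed 5′ to 3′ on the gene's own strand, and for *Irf2* only 30 bases around its matches are shown. Both strands of every 300-base window were searched for the ISRE letters (GAAA, any 2 bases, GAAA) and the STAT-binding GAS letters TTCNNNGAA, and matches are in capitals. In the same search 3.44% of 32851 windows held the ISRE letters and 8.30% held the GAS letters.
Irf7, chr7:141266482-141266674, minus strand: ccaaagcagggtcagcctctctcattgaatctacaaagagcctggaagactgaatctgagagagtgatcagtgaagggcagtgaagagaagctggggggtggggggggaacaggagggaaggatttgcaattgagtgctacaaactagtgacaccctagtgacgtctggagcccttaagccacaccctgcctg
Irf1, chr11:53769764-53770013, plus strand: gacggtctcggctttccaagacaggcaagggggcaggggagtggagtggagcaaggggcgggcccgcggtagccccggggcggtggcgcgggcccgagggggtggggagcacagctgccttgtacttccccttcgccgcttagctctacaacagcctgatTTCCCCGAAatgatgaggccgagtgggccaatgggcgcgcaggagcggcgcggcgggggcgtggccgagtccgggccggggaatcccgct
Irf2, chr8:46739503-46739532, plus strand: tGAAAATGAAAttgacttTTCCGAGAAatg
Irf8, chr8:120736108-120736357, plus strand: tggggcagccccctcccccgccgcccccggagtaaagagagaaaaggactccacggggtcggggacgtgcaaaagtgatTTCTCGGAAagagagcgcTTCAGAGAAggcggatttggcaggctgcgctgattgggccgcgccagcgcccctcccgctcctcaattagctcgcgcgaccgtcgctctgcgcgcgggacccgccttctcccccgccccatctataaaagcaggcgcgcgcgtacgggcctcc
Of 2 *Irf1* windows, the first had 1 GAS match, 90 bases upstream of its start site, and the second held neither set of letters. In *Irf2*, an ISRE match 241 bases upstream stood beside a GAS match 224 bases upstream, in a stretch that partly lies in an exon of *Gm16675*. The first *Irf8* window had a pair of GAS matches, 171 and 153 bases upstream, and its second window held neither set of letters. The windows of *Irf3*, *Irf4*, *Irf5*, *Irf7* and *Irf9* held neither set of letters, which says only that these letters were not in these windows. The matches are descriptions of the reference sequence; binding was not measured.

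Of the 7 genes, *Irf7* alone was called different between the genotypes. *Irf7*, which encodes the IRF that sustains type I interferon production and is itself induced by interferon, was 16.9-fold higher in WT monocytes. The call required an edgeR adjusted p of at most 0.05 and a change of at least 1.5-fold, and 2.13% of the 11254 genes tested met it in either direction (1.67% higher in WT, 0.462% lower). All 7 members passed the filter on low counts.

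*Irf7* (ENSMUSG00000025498.15, chr7:141262706-141266481 on the minus strand of GRCm38) read 721, 413 and 393 normalized CPM in WT replicates 1, 2 and 3, and 25.8, 32.7 and 31.8 in Ifnar1-/- replicates 1, 2 and 3. The lowest WT library lay far above the highest Ifnar1-/- library, and WT replicate 1 stood above the other WT libraries. The means were 509 ± 184 and 30.1 ± 3.75 (SD, n = 3 each), a log2 fold change of 4.08 ± 0.26 (SE, 95% interval 3.49 to 4.67, edgeR adjusted p = 1.64e-05). In folds, that interval ran from 11.3 to 25.4. *Irf7* was still counted in Ifnar1-/- cells, with 169, 193 and 173 expected counts, well over the floor of 3. Among the genes tested it was number 23 by fold in favour of WT, with genes lower in WT not counted by size, and by p it was number 12. Non-overlapping levels alone are common here: 23.4% of the genes tested did not overlap between the groups, 11.1% with WT above, against 1 of 7 IRF genes.

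**Figure D1:**
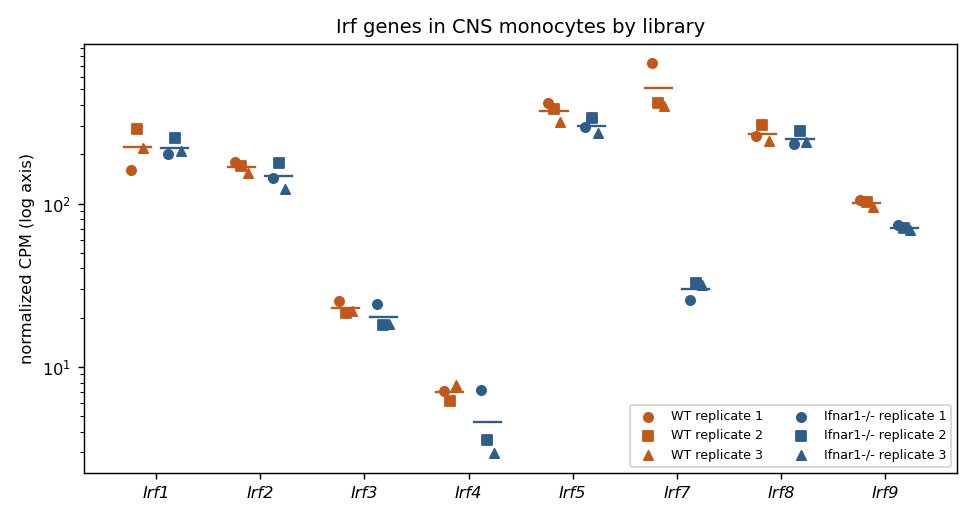
Normalized CPM (log axis) of the 7 Irf genes and *Irf9* in each library; marker shape gives the replicate and the short bar the mean of 3 libraries. *Irf7* separates, with 393 to 721 in WT and 25.8 to 32.7 in Ifnar1-/-; *Irf9* separates narrowly, and the ranges of the other 6 genes overlap.

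*Irf3* encodes the constitutive partner of IRF7 in the induction of interferon-β. *Irf3* (ENSMUSG00000003184.15, chr7:44997648-45002848) measured 25.2, 21.3 and 21.9 normalized CPM in WT and 24.1, 18.0 and 18.2 in Ifnar1-/- replicates 1 to 3. In normalized CPM the groups overlapped, since Ifnar1-/- replicate 1 lay above WT replicates 2 and 3. The log2 fold change was 0.18 ± 0.18 (SE, 95% interval -0.22 to 0.58, edgeR adjusted p = 0.638), which bounds the difference at 1.49-fold higher in WT.

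*Irf5*, whose product drives proinflammatory cytokine genes downstream of MyD88 in myeloid cells, had the most counts after *Irf7* in WT. *Irf5* (ENSMUSG00000029771.12, chr6:29526625-29541871) gave 413, 379 and 316 normalized CPM in WT and 294, 335 and 270 in Ifnar1-/- replicates 1 to 3. The highest values were in WT replicates 1 and 2, while WT replicate 3 fell below Ifnar1-/- replicate 2. The difference missed the threshold (log2 0.30 ± 0.16 SE, 95% interval -0.05 to 0.66, edgeR adjusted p = 0.350), and its interval allows up to 1.58-fold.

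*Irf1* and *Irf2* encode the activator and its competitor. *Irf1* (ENSMUSG00000018899.16, chr11:53770014-53778374) had 160, 284 and 220 normalized CPM in WT and 201, 251 and 209 in Ifnar1-/- replicates 1 to 3. Both the lowest and the highest of these values belonged to WT libraries. The log2 fold change was 0.01 ± 0.21 (SE, 95% interval -0.45 to 0.46, edgeR adjusted p = 0.989), and its sign turned under 7 of the 13 alternative fits with all libraries. *Irf2* (ENSMUSG00000031627.9, chr8:46739732-46847458) had 181, 170 and 153 in WT and 143, 177 and 122 in Ifnar1-/- libraries. The Ifnar1-/- values of *Irf2* spanned more than the WT values and overlapped them (log2 0.19 ± 0.17 SE, 95% interval -0.18 to 0.55, edgeR adjusted p = 0.594).

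*Irf8*, which myeloid progenitors need to form monocytes and some dendritic cells, was close in all 6 libraries. *Irf8* (ENSMUSG00000041515.10, chr8:120736358-120756694) had 258, 305 and 241 normalized CPM in WT and 233, 279 and 239 in Ifnar1-/- replicates 1 to 3. In both groups replicate 2 was the highest, and the ranges overlapped. The log2 fold change was 0.10 ± 0.15 (SE, 95% interval -0.24 to 0.44, edgeR adjusted p = 0.784), which bounds the difference at 1.35-fold higher in WT.

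*Irf4*, known for its part in plasma cells, T cells and alternatively activated macrophages, was the least read of the 7. *Irf4* (ENSMUSG00000021356.10, chr13:30749226-30766976) had 50, 29 and 39 expected counts in WT and 47, 21 and 16 in Ifnar1-/- replicates 1 to 3. In normalized CPM these were 7.11, 6.16 and 7.70 against 7.18, 3.56 and 2.94. Ifnar1-/- replicate 1 matched the WT libraries and the other two lay lower (log2 0.60 ± 0.34 SE, 95% interval -0.16 to 1.36, edgeR adjusted p = 0.393). At this depth a difference of up to 2.57-fold would lie within the interval, wider than for any other member. Summed T cell markers were 17.6 to 41.8 normalized CPM in WT and 7.46 to 16.6 in Ifnar1-/- libraries. Of these 7 markers 5 were tested and 0 called by edgeR, DESeq2 or limma-voom, although in edgeR all 5 had an unadjusted p under 0.05 and log2 fold changes of 1.03 to 1.80. Summed B cell markers were 1.49 to 1.71 and 0.305 to 1.10, with *Pax5* at 0. The part of these cells in the *Irf4* values was not tested.

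None of the 6 members other than *Irf7* reached even an unadjusted p of 0.05 in edgeR, and DESeq2 and limma-voom called none of them. Apart from *Irf4*, their intervals exclude a rise in WT above 1.58-fold, against a lower bound of 11.3-fold for *Irf7*.

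**Figure D2:**
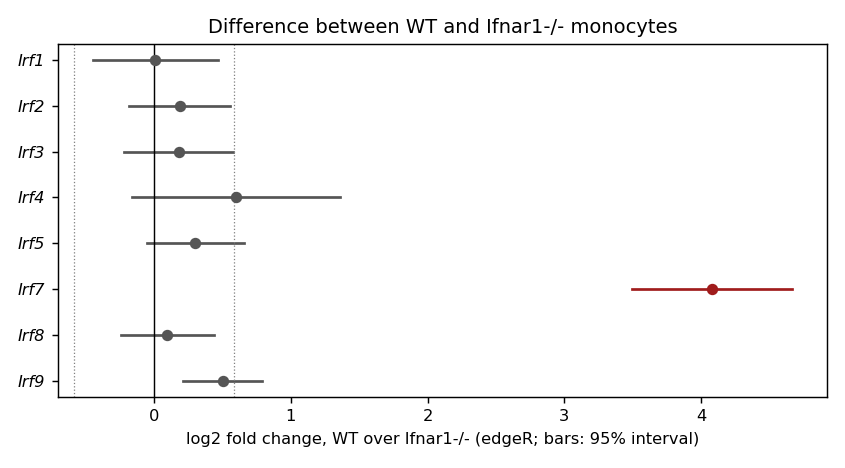
Log2 fold change (WT over Ifnar1-/-, edgeR) with its 95% interval for the 7 Irf genes and *Irf9*; dotted lines mark 1.5-fold in either direction, and red marks the called gene. *Irf7* lies at 4.08, and the intervals of the other 6 members include 0.

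Ratios within a library do not depend on the scaling between libraries. The log2 ratio of *Irf7* to each other member, from normalized CPM, was higher in WT by 4.05 against *Irf1*, 3.83 against *Irf2*, 3.84 against *Irf3*, 3.31 against *Irf4*, 3.73 against *Irf5* and 3.93 against *Irf8*. In each of these 6 ratios all WT libraries lay above all Ifnar1-/- libraries. The two-sided exact permutation p was 0.1 for each, and 0.1 after Benjamini-Hochberg adjustment over the 6, which is the smallest that 3 against 3 libraries allow.

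Per transcript length, on the TPM scale, *Irf7* moved from first of the 7 in WT to near the bottom in Ifnar1-/- cells. Its level was 305, 264 and 248 TPM in WT and 13.6, 19.8 and 20.4 TPM in Ifnar1-/- replicates 1 to 3. It ranked 1 in all 3 WT libraries and ranked 6, 5 and 5 in the Ifnar1-/- libraries, where *Irf3*, at 15.4, 14.3 and 14.0 TPM, was its neighbour. In WT *Irf3* was 15.44, 20.36 and 18.29 TPM, just clear of its highest Ifnar1-/- value of 15.36. That difference was not called by limma on log2(TPM + 1) (adjusted p = 0.892). *Irf7* made up 42.0, 27.1 and 29.1% of the TPM summed over the 7 genes in WT, and 2.63, 3.01 and 3.88% in Ifnar1-/- libraries. Without *Irf7* the sum of the other 6 was 420, 709 and 605 TPM in WT and 503, 639 and 505 TPM in Ifnar1-/- libraries, which overlap.

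The order of the others was similar in both groups. In WT, mean levels in TPM ran from *Irf5* (174 ± 24.1) and *Irf1* (172 ± 68.8) through *Irf2* (116 ± 26.7) and *Irf8* (97.3 ± 26.4) down to *Irf3* (18.0 ± 2.47) and *Irf4* (1.40 ± 0.316), with SD over 3 libraries. *Irf5* and *Irf1* changed places between WT libraries, and neighbours from *Irf5* to *Irf8* differed by less than the larger of their SDs. In Ifnar1-/- cells *Irf1* led (183 ± 29.2 TPM), followed by *Irf5* (144 ± 29.4), *Irf2* (116 ± 14.3) and *Irf8* (88.6 ± 15.6), and this order held in each library. There *Irf5* and *Irf2* differed by less than the larger of their SDs, as did *Irf7* (17.9 ± 3.77) and *Irf3* (14.6 ± 0.703). *Irf4* was last in all 6 libraries, at 0.78 to 3.34 TPM. WT replicate 1 was low in TPM for *Irf1*, *Irf2* and *Irf8*, and there the small RNA gene *Rn7s2* took 27.8% of all TPM, against 9.44% and 10.7% in WT replicates 2 and 3. A larger share for 1 gene lowers the TPM of all others by construction, but the part of *Rn7s2* in these values was not tested. In normalized CPM, WT replicate 1 was also the lowest WT library for *Irf1* (160), but not for *Irf2* (181) or *Irf8* (258).

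**Figure D3:**
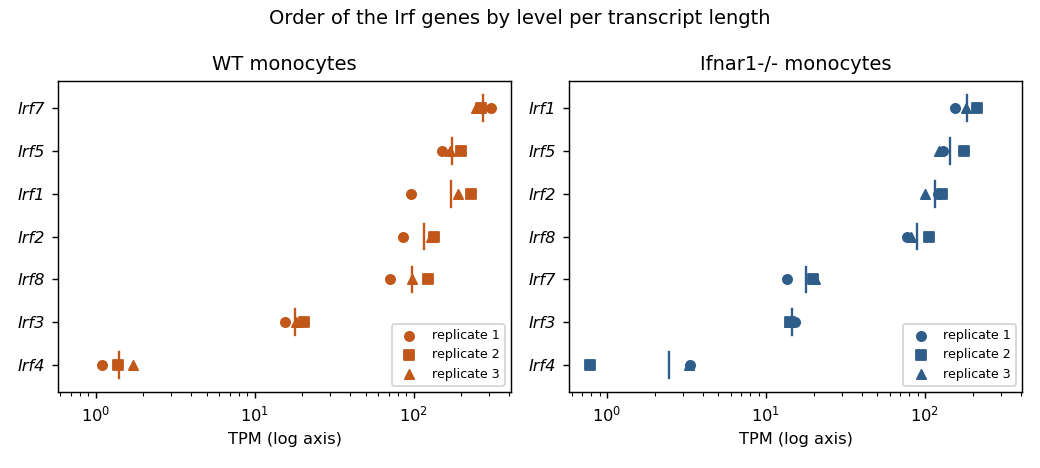
TPM (log axis) of the 7 Irf genes in each library, ordered by the mean within each genotype; marker shape gives the replicate and the vertical bar the mean of 3 libraries. *Irf7* heads the WT panel at 248 to 305 TPM and lies at 13.6 to 20.4 TPM, beside *Irf3*, in the Ifnar1-/- panel.

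IRF8 and IRF4 proteins use some of the same partners, and their balance was compared within libraries. The log2 TPM ratio of *Irf8* to *Irf4* was 6.01, 6.49 and 5.81 in WT and 4.54, 7.09 and 4.63 in Ifnar1-/- replicates 1 to 3. The Ifnar1-/- libraries lay on both sides of the WT libraries, with a mean difference (WT minus Ifnar1-/-) of 0.68 and an exact permutation p of 0.4. From normalized CPM in place of TPM the difference was -0.63 (exact permutation p = 0.3), the opposite in sign.

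The RSEM length of a gene, its mean transcript length weighted by isoform abundance, is a readout separate from the count. For *Irf7* it was 1869, 1802 and 1826 bases in WT and 1824, 1845 and 1540 in Ifnar1-/- replicates 1 to 3. Apart from the shorter Ifnar1-/- replicate 3 these values lay close together (exact permutation p = 0.5). *Irf4* was assigned 4761, 4764 and 4761 bases in WT and 2041, 4761 and 952 in Ifnar1-/- libraries. The short *Irf4* values stood in replicates 1 and 3, with 47 and 16 expected counts, and in those libraries its level was 3.34 and 3.31 TPM, above every WT library, although its counts were not.

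*Irf1* was the only member whose lengths did not overlap, with 1377, 1462 and 1392 bases in WT and 1304, 1372 and 1174 in Ifnar1-/- libraries. The closest values of *Irf1*, in WT replicate 1 and Ifnar1-/- replicate 2, were a few bases apart. Its means were 1411 ± 45.4 and 1284 ± 101 bases (SD, n = 3; exact permutation p = 0.1, adjusted 0.42 over the 7 members), and its effective lengths, from which RSEM subtracts the fragment size, overlapped. Of 8985 genes whose length varied, 10.6% did not overlap between the groups, 6.01% with WT longer, so 1 of 7 lies near the background. For the other members the lengths overlapped, and no adjusted p was below 0.42.

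**Figure D4:**
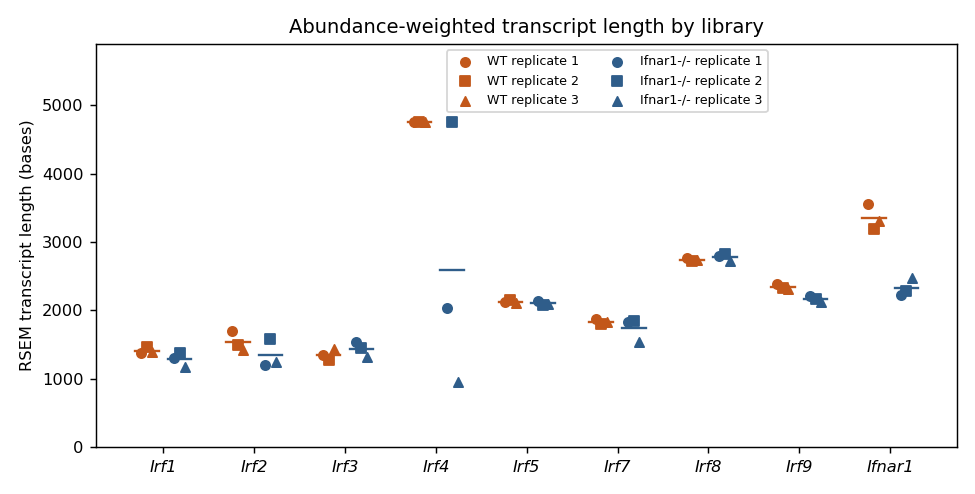
RSEM transcript length in bases of the 7 Irf genes, *Irf9* and *Ifnar1* in each library; marker shape gives the replicate and the short bar the mean of 3 libraries. *Irf4* is at 952 and 2041 bases in a pair of Ifnar1-/- libraries and at 4761 to 4764 bases in the other 4; *Ifnar1* separates by genotype.

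*Irf9*, the DNA-binding subunit of ISGF3, was not called, missing both the p and the fold required. It read 105, 103 and 94.8 normalized CPM in WT and 74.2, 71.0 and 68.6 in Ifnar1-/- replicates 1 to 3. All WT values lay above all Ifnar1-/- values (log2 0.50 ± 0.13 SE, 95% interval 0.22 to 0.79, edgeR adjusted p = 0.0842), and over the 19 alternatives the adjusted p ran from 0.0305 with DESeq2, the only one under 0.05, to 0.819 on log2(TPM + 1). On the TPM scale its groups overlapped, and it was called under none of them.

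The ISGF3 list is not described as a whole, since not all of its genes are reported here. *Stat2*, whose product is a partner of IRF9, was called and read 189, 123 and 139 normalized CPM in WT and 30.8, 44.1 and 35.3 in Ifnar1-/- libraries, a clear gap between the groups (log2 2.04 ± 0.20 SE, edgeR adjusted p = 0.000347).

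Genes that lead to IRF activation were not called. The list of 17 kinases and adaptors upstream of IRF3, IRF5 and IRF7, among them *Tbk1*, *Myd88*, *Mavs* and *Traf6*, had a median log2 fold change of 0.21 (range -0.24 to 0.54), against -0.01 over all genes tested. By edgeR 0 of 17 were called and 3 had an unadjusted p under 0.05, and DESeq2 and limma-voom called 0. Those with the smallest p were *Azi2*, an adaptor of TBK1 (log2 0.35, edgeR adjusted p = 0.192), *Ikbke*, a kinase akin to TBK1 (log2 0.42, adjusted p = 0.239), *Ticam1*, the TRIF adaptor of TLR3 (log2 0.54, adjusted p = 0.251) and *Traf3* (log2 0.26, adjusted p = 0.441).

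Proteins that bind and restrain or modify IRFs were likewise not called, with 0 of 7 by edgeR (3 at an unadjusted p under 0.05), 0 by DESeq2 and 0 by limma-voom, and a median of 0.42. *Irf2bp2*, a corepressor that binds IRF2, read 558, 477 and 411 normalized CPM in WT and 378, 369 and 318 in Ifnar1-/- libraries. Its groups did not overlap, yet the difference missed the threshold (log2 0.44, edgeR adjusted p = 0.194). *Trim21*, a ubiquitin ligase that acts on several IRFs, had a log2 fold change of 0.56 (adjusted p = 0.148), *Irf2bpl* 0.42 (adjusted p = 0.273) and *Rbck1* 0.32 (adjusted p = 0.352).

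Of the 11 tested partners and coactivators, edgeR called 1. *Jund*, an AP-1 subunit, read 302, 175 and 227 normalized CPM in WT and 122, 112 and 129 in Ifnar1-/- libraries, all WT above all Ifnar1-/- (log2 0.95 ± 0.20 SE, edgeR adjusted p = 0.0349). The call on *Jund* was lost on leaving out any library other than WT replicate 2 (log2 0.74 to 1.02, adjusted p 0.0545 to 0.154 in those 5 fits) and with offsets for GC content and length (log2 0.56, adjusted p = 0.156). *Ep300* and *Crebbp*, the histone acetyltransferases, had log2 fold changes of 0.55 (edgeR adjusted p = 0.157) and 0.59 (adjusted p = 0.208), *Jun* 0.54 (adjusted p = 0.186) and *Spi1*, which encodes PU.1, 0.28 (adjusted p = 0.390). *Spib* was below the filter, and the median of the list was 0.42.

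The interferon genes themselves, the classical targets of IRF3 and IRF7, were not detected beyond single counts. Over 19 type I and type III interferon genes the summed expected counts were 0, 1 and 0 in WT and 2, 0 and 0 in Ifnar1-/- libraries, below the floor of 3 in each, so a difference was not detectable at this depth. The counts belonged to *Ifnb1* in WT replicate 2 and to *Ifna2* in Ifnar1-/- replicate 1.

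Interferon-stimulated genes that IRF3 and IRF7 can induce, all of which ISGF3 induces too, were called higher in WT for 7 of 8, with a median log2 fold change of 4.66. *Ifit2*, which binds RNA, read 563, 362 and 408 normalized CPM in WT and 19.5, 20.7 and 17.8 in Ifnar1-/- libraries (log2 4.52). The antiviral genes *Ifit3* (5.22), *Oasl1* (5.11), *Rsad2* (5.01) and *Ifit1* (4.80) changed by more than *Irf7*, and the ubiquitin-like *Isg15* (3.56) by less. *Oasl1* encodes a protein known to repress translation of *Irf7* mRNA. Ifit and Oasl genes have close copies between which reads may be split, so their values are uncertain. The chemokine gene *Cxcl10* was 118, 127 and 102 in WT and 56.7, 51.7 and 63.1 normalized CPM in Ifnar1-/- libraries (log2 1.02, edgeR adjusted p = 0.00444). *Ccl5* overlapped between the groups and was not called (log2 0.58, edgeR adjusted p = 0.527).

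Genes known as targets of the other members were mostly not called. For IRF1, 0 of 10 tested targets were called by edgeR (3 at an unadjusted p under 0.05), DESeq2 or limma-voom, with a median of 0.14. *Il15*, a cytokine gene, was low but separated, at 2.70, 2.13 and 4.34 normalized CPM in WT and 0.916, 0.508 and 0.919 in Ifnar1-/- libraries (log2 1.93, edgeR adjusted p = 0.0741). *Tap1*, the peptide transporter, had a log2 fold change of 0.53 (edgeR adjusted p = 0.178), *Socs1* of 0.63 (adjusted p = 0.407) and *Ptgs2*, the inducible cyclooxygenase gene, of -0.55 (adjusted p = 0.179).

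For IRF5, 0 of 4 tested cytokine genes were called by edgeR (0 at an unadjusted p under 0.05), DESeq2 or limma-voom, and the median was -0.08. Their log2 fold changes were -0.38 for *Il1b* (edgeR adjusted p = 0.463), 0.41 for *Il12a* (adjusted p = 0.565), 0.21 for *Tnf* (adjusted p = 0.617) and -0.40 for *Il6* (adjusted p = 0.645). For IRF4, 0 of 5 tested alternative activation genes were called by the same 3 tools (0 at an unadjusted p under 0.05 in edgeR), with a median of -0.14. *Arg1*, which encodes arginase and read 2546 to 3799 normalized CPM over all libraries, had a log2 fold change of -0.24 (edgeR adjusted p = 0.530), and *Chil3* of -0.50 (adjusted p = 0.309). The chemokine genes *Ccl22* and *Ccl17* had 1.21 (edgeR adjusted p = 0.351) and 0.59 (adjusted p = 0.594).

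Among 7 tested myeloid targets of IRF8, edgeR called 1, and the median was 0.20. *Pml*, which organises nuclear bodies and is also an interferon-stimulated gene, read 114, 80.8 and 68.7 normalized CPM in WT and 19.2, 30.3 and 22.8 in Ifnar1-/- libraries (log2 1.87 ± 0.23 SE, edgeR adjusted p = 0.00129). *Klf4*, a monocyte transcription factor gene, had a log2 fold change of 0.74 (edgeR adjusted p = 0.217), and among the alternatives run it was called only without WT replicate 2 and without the low-count filter. *Ctss*, a lysosomal protease gene, had 0.27 (edgeR adjusted p = 0.492) and *Bcl6*, a repressor gene, 0.20 (adjusted p = 0.523). *Il12b*, which stands in the lists of IRF1, IRF5 and IRF8, was below the filter.

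**Figure D5:**
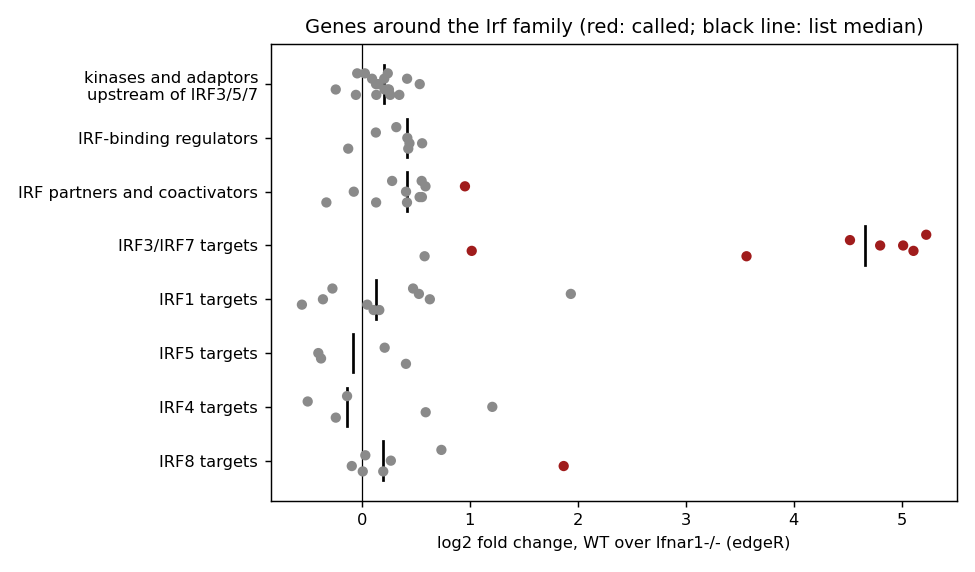
Log2 fold change (WT over Ifnar1-/-, edgeR) of each tested gene in the lists around the Irf family; each point is a gene, red points were called, and the black line is the list's median. The genes that IRF3 and IRF7 can induce lie furthest to the right, with a median of 4.66; the medians of the other lists plotted run from -0.14 to 0.42.

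The tested genes whose profiles over the 6 libraries were most like that of *Irf7* were *Usp18*, *Ifi208*, *Mx1*, *Oas3* and *Oas2*. Likeness was the root mean square difference of log2 normalized CPM after each gene's own mean was subtracted. It was 0.131 for *Usp18*, 0.224 for *Ifi208*, 0.254 for *Mx1*, 0.256 for *Oas3* and 0.262 for *Oas2*, against a median of 2.05 over the tested genes. That median follows by construction from the size of the *Irf7* difference, since most tested genes differed little between the groups. The 5 nearest genes had log2 fold changes of 3.76 to 4.47, near that of *Irf7*. *Usp18* read 109, 69.9 and 70.3 normalized CPM in WT and 3.82, 4.91 and 6.07 in Ifnar1-/- libraries, like *Irf7* highest in WT replicate 1 and lowest in Ifnar1-/- replicate 1.

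Plasmacytoid dendritic cells are known for high constitutive *Irf7*. Their 8 markers summed to 55.5 to 72.9 normalized CPM in WT and 37.9 to 54.5 in Ifnar1-/- libraries, so WT lay narrowly above. Most of each sum came from *Tcf4* (48.2 to 67.4 and 34.6 to 50.7). The defining marker *Siglech* was 0.854, 1.28 and 1.97 in WT and 0.764, 0 and 0.919 in Ifnar1-/- libraries. *Pacsin1* was 1.71, 1.70 and 1.58 in WT and 0, 0.678 and 0.368 in Ifnar1-/- libraries, on at most 12 counts. It did not overlap between the groups, while the other markers did. *Ly6d*, *Cox6a2* and *Klk1* had at most 3 counts in any library, and of the 8 markers only *Tcf4* passed the filter and none was called. The part of such cells in the *Irf7* difference was not tested. Summed conventional dendritic cell markers were 18.5 to 27.2 and 12.9 to 23.5, those of NK cells 0.425 to 2.96 and 0 to 0.736, neutrophils 342 to 1281 and 658 to 1666, and microglia 244 to 321 and 286 to 365 normalized CPM in WT and Ifnar1-/- libraries.

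Several members overlap a gene on the other strand, and the strand setting of the counting was not given in the sources used here. *Phrf1* shares 45 bases with *Irf7* and had a log2 fold change of 0.56 ± 0.18 (SE, edgeR adjusted p = 0.147), at 84.2, 56.3 and 55.7 normalized CPM in WT and 43.7, 47.8 and 41.7 in Ifnar1-/- libraries. The *Phrf1* values lay far below those of *Irf7* in WT and above them in Ifnar1-/- cells. *Bcl2l12* shares 1065 bases with *Irf3* (log2 0.35, edgeR adjusted p = 0.778) and *Tnpo3* shares 1045 bases with *Irf5* (log2 -0.25, adjusted p = 0.384). *Gm17334*, within *Irf1*, and *Gm45479* and *Gm45481*, within *Irf2*, had at most 2 counts in any library. *Gm31172*, within *Irf2*, was not matched to the tables. *Gm20388*, which spans *Irf8* on the same strand, so that no strand setting would separate them, was not matched either. The neighbour of *Irf7* on its other side, *Deaf1*, was not called (log2 0.42, edgeR adjusted p = 0.468).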

How the data were processed

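The authors sorted the cells, sequenced stranded libraries and quantified genes against GRCm38; per the submitters' processing notes, STAR 2.6.0c and RSEM 1.2.31 were used. The labels and the methods name different library kits. Each deposited table gives the expected count (estimated reads per gene, not normalized), the TPM (scaled within the library and corrected for length) and the transcript length per gene in 1 library. Expected counts were rounded and tested with edgeR 4.0.16 in R 4.3.3 (TMM, filterByExpr with a minimum count of 10, quasi-likelihood test, Benjamini-Hochberg over 11254 genes), WT over Ifnar1-/-, 3 against 3. Calls needed an adjusted p of at most 0.05 and 1.5-fold. Single values were compared by two-sided exact permutation tests. Gene positions came from GENCODE M21 (67 IDs unmatched). The code was tested on simulated data. Total counts of 4531782 to 7321380 set the precision.

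The members and lists were chosen with earlier results of these data known. Named were all members, *Irf9*, every called gene of a list with up to 4 others of smallest p, and the 5 profiles nearest, the neighbours and the overlaps of *Irf7* (overlaps for all members). Alternatives were DESeq2 1.42.0, limma 3.58.1 (voom, or log2 TPM with a pseudocount of 1 or 0.1), RLE scaling, other filters, removal of mitochondrial and ribosomal RNA genes, adjusted p alone, a replicate block, GC and length offsets, and each library left out. Some genes of the lists are not reported here.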

Additional observations from a re-analysis of the deposited data

How the results depend on the processing

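*Irf7* was called under all 19 alternatives (log2 3.75 without WT replicate 1 to 4.26 without WT replicate 3, highest adjusted p 0.000551), and it was the only member called in each. The number of genes called, 240, became 424 with DESeq2, 872 without the low-count filter, 128 and 124 with limma on log2(TPM + 1) and log2(TPM + 0.1), 368 with GC and length offsets plus the replicate block, and 119 to 245 on leaving out a library, lowest without Ifnar1-/- replicate 1 (119), Ifnar1-/- replicate 3 (120) and WT replicate 3 (148). The partner and coactivator list went from 1 called gene to 2 without the filter, to 0 with either TPM setting, 0 with GC and length offsets (0 with the block added) and 0 to 1 without a library. The targets of IRF8 went from 1 to 2 without the filter and 1 to 2 without a library. The targets of IRF1 went from 0 to 2 without the filter and 1 with the offsets plus block, *Il15* in both, and the IRF-binding regulators from 0 to 1 (*Trim21*) with the latter.

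Signs turned for values that were not called. *Irf1* became -0.020 with limma-voom, -0.17 with either TPM setting, -0.056 with the offsets, -0.086 with offsets and block, and -0.20 to 0.21 without a library. *Irf2* became -0.024 with either TPM setting, *Irf4* -0.43 with log2(TPM + 1) and -0.56 with log2(TPM + 0.1), and *Irf8* -0.0051 with the offsets and -0.011 with the block added. TPM divides by the lengths given for *Irf4*, which were short in a pair of Ifnar1-/- libraries. The cause was not tested for any of the turns. The *Irf7* length difference was 96.3 bases, -1.93 to 151 without a library, and the log2 ratio of *Irf8* to *Irf4* turned to -0.63 with normalized CPM.

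Replicate numbers are shared by the groups, but same-numbered libraries deviated together weakly (correlations 0.0906, 0.0278 and 0.275 for numbers 1, 2 and 3). WT replicate 1 was slightly closer to Ifnar1-/- replicate 2 (0.0920), and the other differently numbered libraries correlated at -0.196 to 0.0180. Neither the labels nor the methods state pairs, so the main test did not take the numbers as pairs. Each recipient held marrow of both genotypes, so libraries may share an animal, but which ones do is not stated. With the replicate block 220 genes were called, 190 of them among the 240, and 264 with DESeq2 and the block; *Irf1* became -0.021 and -0.0057 in these fits. Depth limits *Irf4* and the interferon genes.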
